A study of Rattus norvegicus with 6 samples.

Results

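The KEAP1-NRF2 pathway and its classical target genes were followed in the renal cortex of rats given phenolphthalein, a pH indicator with laxative action. The members were 10 genes chosen by name, with earlier results of these data known: Nfe2l2, Keap1, Nqo1, Hmox1, Gclc, Gclm, Txnrd1, Srxn1, Slc7a11 and Osgin1. They are 10 of the 15284 genes that the array's RefSeq accessions named, and 19 of its 61657 probes. The study compared 2 groups of 3 male Sprague-Dawley rats bought at 5 weeks of age. The vehicle group received corn oil and the other group phenolphthalein at 1000 mg/kg/day, each for 4 weeks, and both groups were fed a basal diet. Each array held cortical RNA of 1 rat, labelled with a single dye, and the cortex is rich in proximal tubules. The comparison asks whether these genes differ after phenolphthalein.

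NRF2, the product of Nfe2l2, is a transcription factor that the adaptor KEAP1 normally hands over for degradation. Electrophiles and oxidants modify KEAP1, NRF2 then accumulates, pairs with a small MAF protein and binds antioxidant response elements beside its target genes. The targets make glutathione, reduce thioredoxin and quinones, break down haem and supply NADPH, and the kidney tubule uses them against reactive compounds. Much of the control of NRF2 acts on the protein, which these arrays did not measure.

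None of the 10 members passed the threshold in either direction. An adjusted p under 0.05 was required (limma, Benjamini-Hochberg over 34417 items, which are the named genes with 1 probe each and the unnamed probes), and 0 items (0%) were called. At an unadjusted p under 0.05, 0 members were found, where 8.87% of all items were. Of the members, 5 had a higher and 5 a lower mean with phenolphthalein, while 45.8% of all items had a higher one. The median log2 fold change of the members was -0.03, and that of all items was -0.02. The groups were fully separate for 1 member, Hmox1, which was lower. Such separation was seen in 15.7% of all items, higher in 6.58% and lower in 9.1%. Gclm and, by smaller amounts, Osgin1 and Gclc stood apart in a single treated rat, phenolphthalein replicate 1, where they were highest. Another treated rat was the lowest for each of them, and their group differences rest on single arrays.

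The antioxidant response element is the sequence that NRF2 binds beside its targets, and its core was sought in the promoters of the members. The core TGACNNNGC was searched on both strands of windows reaching from 250 bases before to 50 bases after each annotated start (RefSeq, GRCr8 build). The 9 members found had 10 windows, of which 3 held a match, each in another gene, and 12.1% of all 33469 windows held one. Those upstream of a start are shown with the match in capitals, 5′ to 3′ along the gene, since Gclm and Txnrd1 are described in detail.
Gclm: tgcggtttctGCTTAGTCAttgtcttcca
Txnrd1: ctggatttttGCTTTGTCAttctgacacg
Both matches are the reverse complement of the core. The Gclm stretch lies at chr2:213031953-213031981 on the plus strand, its match at position -172 relative to the start. The Txnrd1 stretch lies at chr7:22755964-22755992 on the minus strand, at position -78 relative to 1 of the gene's annotated starts, and the window of another start held none. The third match was in Nfe2l2, at position 38 after its start. The windows of Keap1, Nqo1, Gclc, Srxn1, Slc7a11 and Osgin1 held none, and Hmox1 was the member without a window. A match describes letters and is not a measured binding site, and elements outside these windows were not searched.

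The arrays carried signal of proximal tubules. All 14 proximal tubule markers, among them Slc13a3, Miox and Fbp1, were well above background on all 6 arrays. So were all 12 tested markers of other nephron segments and all 14 of the liver list. Detection alone therefore does not tell cortex from other tissue. The arrays lay on 3 slides: 1 held all vehicle arrays, another phenolphthalein replicate 1, and the third phenolphthalein replicates 2 and 3. The slide and the group can therefore not be told apart, nor can the slide and the rat of phenolphthalein replicate 1. Phenolphthalein replicate 1 also stood apart over all items, with a first principal component score of 57.8 against scores of -35.6 to 5.43 in the other arrays. That component held 26.8% of the variance, and the score of -35.6 was that of vehicle replicate 2. Phenolphthalein replicate 2 had the highest liver marker signal, a summed level of 39.9 over 14 markers against 14.4 to 26.1 elsewhere. Of these liver markers 13 had a higher mean, with a median of 0.55, and the most abundant, Apoc3, Alb and Ttr, differed by -0.20, 0.74 and 0.59. Of the tubular injury list, 4 of 9 tested genes had a higher mean, with a median of -0.05, and Cst3 differed by -0.39, Clu by -0.24 and Spp1 by -0.05. Of the erythroid list it was 2 of 7, with a median of -0.13, and the globin genes Hba-a1, Hbb-b1 and Hbb differed by -0.15, -0.13 and -0.11. Markers of other nephron segments had 5 of 12 higher, with a median of -0.05, and Umod differed by 0.06 and Aqp2 by -0.58. None of these marker genes passed the threshold (limma, smallest adjusted p = 0.357), and of those named Cst3 and Aqp2 were lower in every treated rat than in any control. The share of probes well above background was between 64.8% and 72.1% per array, and the 3 arrays per group limit the precision of every value. In each column of the deposited value table the values were those of another replicate of the same group. The replicate numbers used here are those of the scanner files, and the array called phenolphthalein replicate 1 appears in that table as phenolphthalein replicate 3.

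The sensor and the transcription factor themselves differed little. Levels are given as log2 relative to each array's 75th percentile, so that 0 is that percentile, and are compared between arrays and not between genes. Nfe2l2 stood at 3.89, 4.02 and 3.70 in vehicle replicates 1 to 3 and at 3.94, 3.76 and 4.05 in phenolphthalein replicates 1 to 3. These values interleaved, and the means were 3.87 ± 0.16 and 3.92 ± 0.15 (SD, n = 3 each). The log2 fold change was 0.05 (SE 0.10, limma adjusted p = 0.914), with a 95% interval of -0.20 to 0.30, or 0.872-fold to 1.23-fold. Its other probe gave 0.06.

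Keap1, whose product holds NRF2 for ubiquitination, stood at 0.35, 0.26 and 0.37 in vehicle and at 0.26, 0.31 and 0.21 in phenolphthalein. The groups overlapped, with a log2 fold change of -0.07 (SE 0.07, limma adjusted p = 0.796). Its interval ran from 0.851-fold to 1.07-fold, the narrowest among the members. For 5 members, Nfe2l2, Keap1, Hmox1, Gclc and Txnrd1, the 95% interval of the probe used lay within a 1.5-fold change in either direction. For 7 members, these and Srxn1 and Slc7a11, it lay within 2-fold, but the Slc7a11 values are near the lower limit of the measurement. These intervals are for each gene alone and are not adjusted for the number of genes. Other probes reached beyond 1.5-fold. The interval of the other Gclc probe ran from 0.566-fold to 1.92-fold. That of the Txnrd1 probe with the largest difference ran from 1.04-fold to 1.59-fold.

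**Figure D1:**
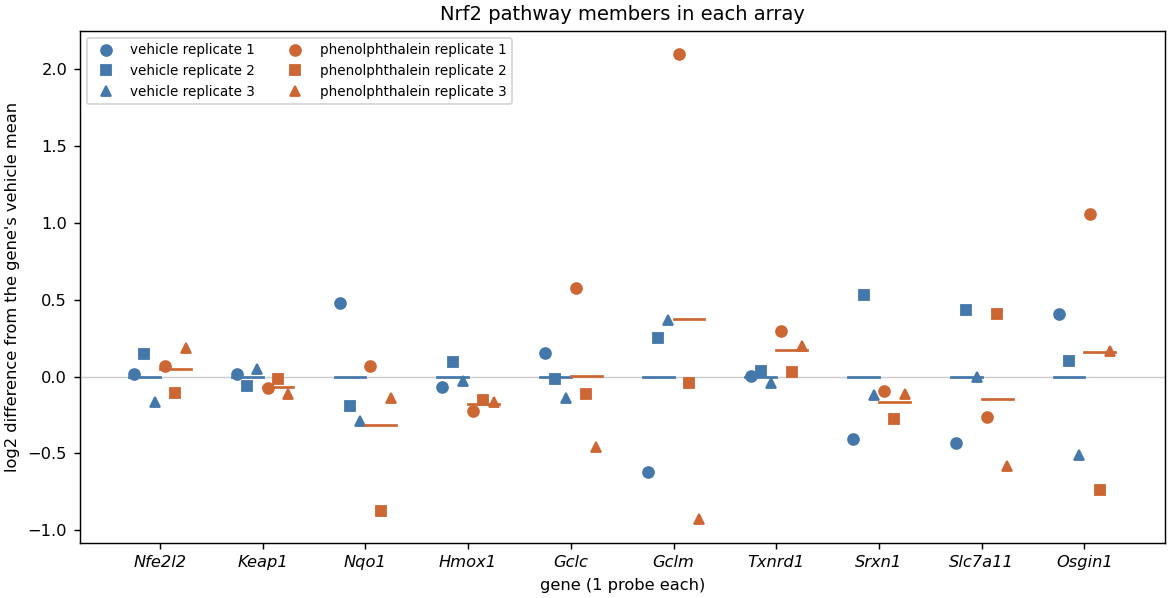
Each point is 1 array, plotted as its log2 difference from the gene's vehicle mean for the 10 members, with vehicle in blue and phenolphthalein in orange. Bars mark the group means. Gclm, Osgin1 and Gclc are highest in phenolphthalein replicate 1, which lies 2.10, 1.06 and 0.58 above the vehicle mean.

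Gclc and Gclm encode the catalytic and the modifier subunit of glutamate-cysteine ligase, the rate-limiting enzyme of glutathione synthesis. Gclm stood at -5.00, -4.13 and -4.01 in vehicle and at -2.28, -4.42 and -5.31 in phenolphthalein. The highest and the lowest of the 6 values were thus both from treated rats. Phenolphthalein replicate 1 was 4.28-fold above the vehicle mean. It lay 2.58 log2 units above the mean of the other treated arrays, and 0.137% of all items had as large an excess there. Between the groups Gclm differed by 0.37 (SE 0.73, limma adjusted p = 0.903), and its interval ran from 0.388-fold to 4.33-fold. Without phenolphthalein replicate 1 it was -0.49, which turns the direction. Leaving out other arrays moved it as high as 1.03.

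The Gclm signal was low. Its probe was well above background on all 6 arrays, with intensities of 30.9, 58.6 and 59.1 in vehicle and of 216.2, 45.2 and 23.2 in phenolphthalein. The intensities of 30.9 and 23.2 lie within the 14.5 to 32.7 of the Slc7a11 probe, near the lower limit of the measurement. The lowest Gclm value and the difference without phenolphthalein replicate 1 rest in part on such dim values. With normexp background correction, which adds an offset to dim signals, the excess of phenolphthalein replicate 1 over the other treated arrays was 1.48 instead of 2.58 on the log2 scale. Gclm had a single probe, so no other probe of the array bears on it.

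Gclc showed the same order among the treated arrays. It stood at 7.60, 7.43 and 7.30 in vehicle and at 8.02, 7.33 and 6.98 in phenolphthalein, again with both extremes among the treated rats. The means were 7.44 ± 0.15 and 7.44 ± 0.53 (SD, n = 3 each), a log2 fold change of 0.0014 (SE 0.24, limma adjusted p = 0.999). Its other probe had the same extremes, at 4.14 in phenolphthalein replicate 1 and 2.57 in replicate 3 against 2.94 to 3.44 in vehicle. Phenolphthalein replicate 1 was 1.82-fold above the other treated arrays by the probe used, and 2.79% of all items had as large an excess there. Without that array the Gclc difference was -0.29 (limma adjusted p = 0.616). Leaving out other arrays moved it as high as 0.23.

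Slc7a11 encodes the cystine-importing subunit of the transporter that supplies cysteine for glutathione. It stood at -5.84, -4.97 and -5.40 in vehicle and at -5.67, -5.00 and -5.99 in phenolphthalein, with overlapping groups. Between the groups Slc7a11 differed by -0.15 on the log2 scale (SE 0.35, limma adjusted p = 0.923). Its probe was well above background on 3 vehicle and 2 phenolphthalein arrays, and the other 2 of its 3 probes were not well above background on any array. The values of Slc7a11 are therefore near the lower limit of the measurement.

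Txnrd1, the cytosolic thioredoxin reductase, had a higher mean with phenolphthalein by all 4 of its probes. The probe used stood at 1.09, 1.12 and 1.04 in vehicle and at 1.37, 1.11 and 1.28 in phenolphthalein, where replicate 2 lay within the vehicle range. Between the groups it differed by 0.17 (SE 0.08, limma adjusted p = 0.605), with an interval of 0.984-fold to 1.29-fold, and by 0.11 without phenolphthalein replicate 1. The other probes gave 0.36, 0.11 and 0.18. For the probe with the largest difference the groups did not overlap, with vehicle at 0.97 to 1.02 and phenolphthalein at 1.04 to 1.52, and its adjusted p was 0.528 (limma over 43473 probes). It was the only one of the 17 tested probes of members with an unadjusted p under 0.05 (0.0273), where 8.82% of all probes had one.

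Srxn1, sulfiredoxin, repairs overoxidised peroxiredoxins. It stood at 0.73, 1.67 and 1.02 in vehicle and at 1.04, 0.86 and 1.03 in phenolphthalein. Vehicle replicate 2 was the highest and the treated values lay within the vehicle range. The group means differed by -0.16 (SE 0.22, limma adjusted p = 0.854), and without vehicle replicate 2 the difference was 0.10. The other Srxn1 probe, a dimmer one, gave -0.10. There vehicle replicate 2 stood at -4.24, against -4.34 in each of the other vehicle arrays.

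Nqo1, a quinone reductase often read as an indicator of NRF2 activity, stood at -1.39, -2.07 and -2.16 in vehicle and at -1.80, -2.75 and -2.01 in phenolphthalein. The highest value was from vehicle replicate 1 and the lowest from phenolphthalein replicate 2. The summed liver marker level was highest in phenolphthalein replicate 2 (39.9) and next highest in vehicle replicate 1 (26.1). The part of liver signal in the Nqo1 values was not tested. The Nqo1 group means differed by -0.32 (SE 0.30, limma adjusted p = 0.780), with an interval of 0.495-fold to 1.31-fold. The other Nqo1 probe gave -0.25. Phenolphthalein replicate 1, where Gclm was highest, was within the vehicle range for Nqo1, and without that array the difference was -0.51. It was -0.04 without phenolphthalein replicate 2 and -0.07 without vehicle replicate 1, so its size rests on single arrays. The 5 named genes whose 6 values ran most like those of Nqo1 were Pdzk1 (r = 0.999), Mthfd1l (0.991), Rb1 (0.982), Gpbp1l1 (0.972) and 1700001K19Rikl (0.965). They were picked as the highest Pearson's r among 12259 genes over 6 arrays, so these values describe the picking and have no p. Pdzk1 itself spanned 0.15 log2 over the arrays.

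Osgin1, an oxidative stress-induced growth inhibitor, stood at 2.18, 1.88 and 1.27 in vehicle and at 2.83, 1.03 and 1.94 in phenolphthalein. As for Gclm and Gclc, the treated rats held both the highest and the lowest value. Phenolphthalein replicate 1 was 2.54-fold above the other treated arrays, an excess that 0.974% of all items reached. The log2 fold change was 0.16 (SE 0.45, limma adjusted p = 0.934), and without phenolphthalein replicate 1 it was -0.29. Without phenolphthalein replicate 2, the lowest array, it was 0.61.

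Hmox1, the inducible haem oxygenase, was the member whose groups were separate. It stood at -1.51, -1.34 and -1.47 in vehicle and at -1.66, -1.59 and -1.61 in phenolphthalein, so that every treated rat was below every control. Hmox1 differed by -0.18 (SE 0.08, limma adjusted p = 0.5996), with an interval of 0.768-fold to 1.01-fold. The difference ranged from -0.21 to -0.13 when 1 array was left out. Hmox1 is also expressed by macrophages, which clear red cells, and macrophage markers had lower values in the same arrays. Of the 13 tested markers of this list, 10 had a lower value, with a median of -0.41. Their summed level, as a multiple of the 75th percentile, was 132.8 to 168.9 in vehicle and 104.4 to 115.9 in phenolphthalein. Lyz2 made up most of this sum, and without it the ranges were 51.5 to 61.9 and 37.4 to 48.2. The mean deviation of the 13 markers, each relative to its own mean, overlapped between the groups, at -0.09, 0.36 and -0.0025 in vehicle and -0.09, 0.06 and -0.24 in phenolphthalein. Among them, Lyz2 differed by -0.44, Tyrobp by -0.49 and C1qb by -0.25. None of the markers passed the threshold. At an unadjusted p under 0.05 there were 7 lower markers and 1 higher, where 4.96% of all items were lower and 3.91% higher. The higher marker was the mannose receptor Mrc1 at 1.097, which is named after its values were seen. The scavenger receptor Cd163 was not tested, being well above background on fewer than 3 arrays, and no tested marker was at 0. The part of macrophage RNA in the Hmox1 values was not tested. In such bulk samples, fewer cells of a type and less RNA per cell cannot be told apart.

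**Figure D2:**
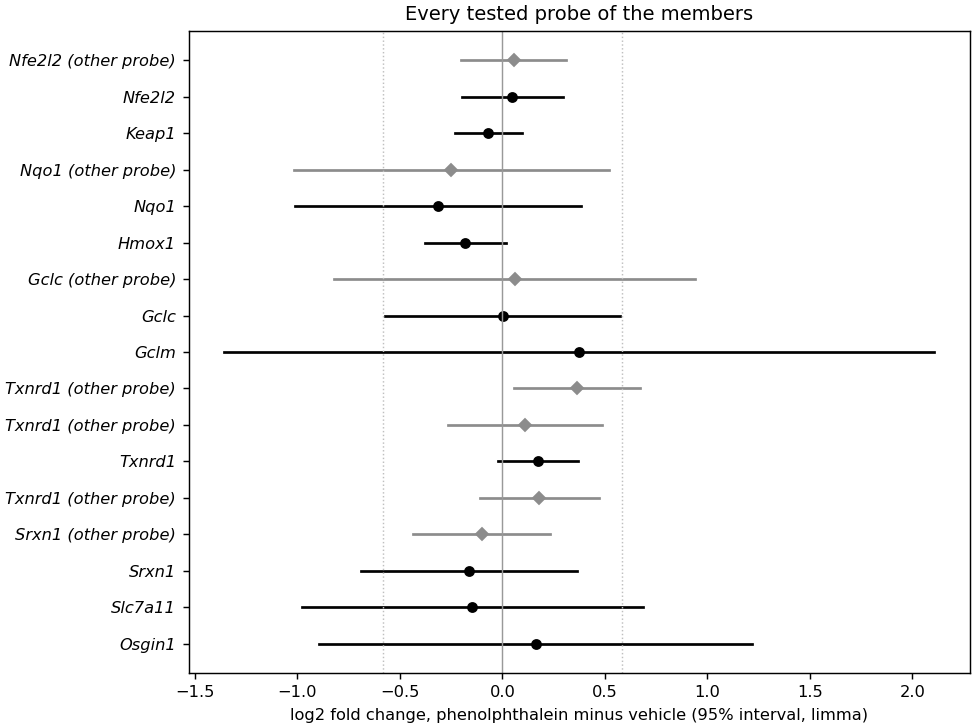
The log2 fold change of each of the 17 tested probes of the members is plotted with its 95% interval from the fit over all probes. Black circles mark the probe that stands for a gene, grey diamonds its other probes, and dotted lines a 1.5-fold change. The probes of each gene share a direction, and the interval of 1 Txnrd1 probe does not include 0.

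In total 4 of the 10 members, Gclc, Gclm, Txnrd1 and Osgin1, were highest in phenolphthalein replicate 1, while 21.1% of all items were highest there. Averaged over the members, each gene relative to its own mean, this array stood at 0.36 and the other treated arrays at -0.18 and -0.19. The vehicle arrays stood at -0.04, 0.14 and -0.08. The value of phenolphthalein replicate 1 came mostly from Gclm (1.91), Osgin1 (0.98) and Gclc (0.58), while the other 7 members averaged 0.01 there. These 3 genes were picked from the same values, so the low mean of the rest follows in part from the picking. Txnrd1, also highest there, is among the 7. Without phenolphthalein replicate 1 the median log2 fold change of the members was -0.18, and 0 of them were called (limma, 0 also at an unadjusted p under 0.05). The part of the slide in this pattern was not tested.

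The wider pathway was read through 6 further lists of 92 genes in all, of which 85 were tested. In those lists 0 genes passed the threshold (limma, smallest adjusted p = 0.433). At an unadjusted p under 0.05, 4 were higher and 4 lower, where 3.91% of all items were higher and 4.96% lower. The list median log2 fold changes lay between -0.04 and -0.00071, around the -0.02 of all items. The groups were separate for 5 genes that were higher and 8 that were lower, against 6.58% and 9.1% of all items. Of these 85 genes, 24.7% were highest in phenolphthalein replicate 1.

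The regulator list holds the ubiquitin ligase that KEAP1 serves, the partners of NRF2 and its competitors. Of 19 tested genes, 9 had a higher and 10 a lower mean, with a median of -0.0097. Mafk, a small MAF protein that pairs with NRF2, stood at -1.84, -1.88 and -2.002 in vehicle and at -1.52, -1.61 and -1.64 in phenolphthalein. Every treated rat was above every control, with a log2 fold change of 0.31 (SE 0.09, limma adjusted p = 0.477). The subunits of the KEAP1 ligase, Cul3 and Rbx1, differed by -0.10 and -0.11, and Park7, which encodes the redox protein DJ-1, by -0.13. The groups of these 3 genes did not overlap either, and 1 of 3 Cul3 probes was higher.

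In the glutathione list of 12 tested genes, 5 had a higher and 7 a lower mean. Gpx2, a glutathione peroxidase and NRF2 target of epithelial cells, stood at 2.72, 2.504 and 3.12 in vehicle and at 4.43, 3.74 and 3.74 in phenolphthalein. All treated rats were above all controls, and phenolphthalein replicate 1 was the highest, as for Gclm. The log2 fold change was 1.19 (SE 0.23, limma adjusted p = 0.433), and all 3 of its probes were higher. Glutaredoxin (Glrx) differed by -0.23, 5-oxoprolinase (Oplah), which returns glutamate from the glutathione cycle, by -0.16, and glutathione reductase (Gsr) by 0.12. For Glrx and Oplah every treated rat was below every control, and the Gsr groups overlapped.

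The thioredoxin list had 6 of 12 tested genes higher, with a median of -0.00071. The peroxiredoxins Prdx1 and Prdx2, which remove peroxides, differed by 0.18 and -0.14, thioredoxin itself (Txn1) by -0.09 and Txnrd3 by 0.12. Prdx1 stood at 5.32, 5.63 and 5.51 in vehicle and at 5.604, 5.76 and 5.62 in phenolphthalein, where the groups overlapped. For Prdx2 and Txn1 all treated rats lay below the controls, and for Txnrd3 all lay above. Of the 6 tested NADPH-producing enzymes, 2 had a higher mean: malic enzyme (Me1) differed by -0.27, Pgls by -0.09 and Idh1 by 0.06. Idh1 was highest in phenolphthalein replicate 1, at 6.20 against 5.495 to 5.78 in the other arrays.

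Of 9 genes of haem breakdown and iron storage, 2 had a higher mean and the list median was -0.04. Biliverdin reductase A (Blvra), which acts after haem oxygenase, stood at 1.68, 1.97 and 1.79 in vehicle and at 2.74, 1.497 and 2.04 in phenolphthalein. Here too phenolphthalein replicate 1 was the highest, while replicate 2 lay below the controls. The group difference was 0.28 (SE 0.29, limma adjusted p = 0.796). Ferritin light chain (Ftl1) differed by -0.10, the porphyrin transporter Abcb6 by -0.07 and the iron exporter Slc40a1 by -0.08.

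**Figure D3:**
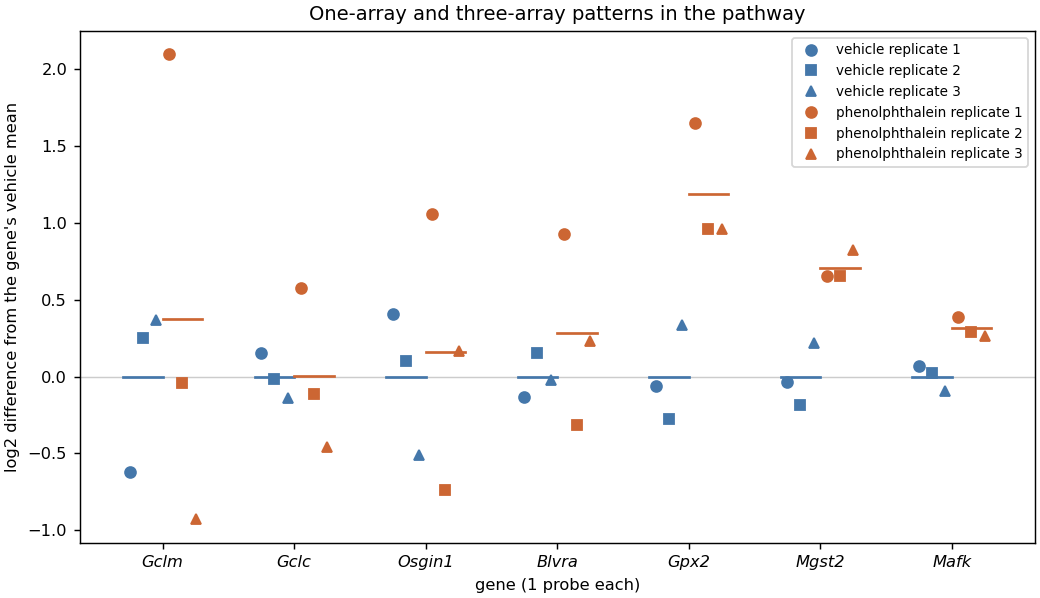
Each point is 1 array, plotted as its log2 difference from the gene's vehicle mean, for Gclm, Gclc, Osgin1, Blvra, Gpx2, Mgst2 and Mafk, with bars at the group means. The first 4 genes are highest in phenolphthalein replicate 1 and overlap between the groups, and for the last 3 all treated arrays lie above all vehicle arrays. The 7 genes were picked for the plot after their values were seen.

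The conjugation list holds drug-metabolising enzymes and efflux pumps reported as NRF2 targets. Of 27 tested genes, 11 had a higher and 16 a lower mean, with a median of -0.03. Mgst2, a microsomal glutathione S-transferase, stood at -4.71, -4.86 and -4.46 in vehicle and at -4.02, -4.02 and -3.85 in phenolphthalein, with separate groups. Its log2 fold change was 0.71 (SE 0.17, limma adjusted p = 0.440). The Mgst2 signal was about as low as that of Gclm, and only 1 probe of Mgst2 was tested. The carboxylesterase Ces2c differed by 0.23 (SE 0.09, limma adjusted p = 0.555), with separate groups as well. The class alpha glutathione S-transferases Gsta3 and Gsta2 differed by -0.13 and -0.14, with separate groups for Gsta3 alone of the pair. They belong to a family of similar sequences whose probes may share signal.

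Some genes of that list varied more among rats of a group than between the groups. Akr1b8, an aldo-keto reductase, stood at -0.27, 2.95 and 2.68 in vehicle and at -0.07, 2.23 and 0.05 in phenolphthalein, which parts the 6 rats into 3 high and 3 low across both groups. Akr1b10 stood at -2.42 in vehicle replicate 1 and at 0.44 to 1.37 in the other arrays. Gstm1 was lowest in phenolphthalein replicate 2, at -0.18 against 1.23 to 2.81 elsewhere, the array in which Nqo1 was lowest too. Akr1b8, Akr1b10 and Gstm1 were named after their values were seen.

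**Figure D4:**
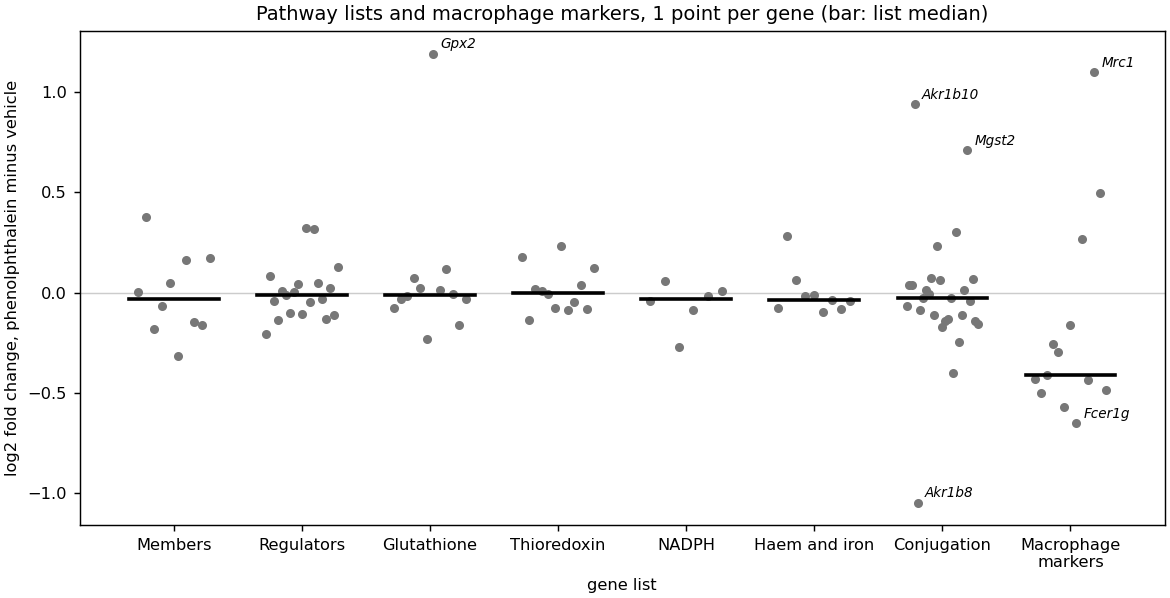
Each point is the log2 fold change of 1 gene, phenolphthalein minus vehicle, for the members, the 6 pathway lists and the macrophage markers. Bars mark list medians, and genes beyond 0.6 in either direction are named. The medians of the pathway lists lie close to 0, and that of the macrophage markers lies at -0.41.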

How the data were processed

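RNA of 6 rat renal cortices was hybridised to Agilent arrays, 1 rat per array. The deposited intensity is the processed spot signal of Agilent Feature Extraction 10.7.1.1, in which background and spatial trends were already removed on each array (per the file headers). The deposited value table holds a linear ratio that matched the intensity over each array's 75th percentile (column medians 0.102 to 0.106); how it was made is not given in the sources used here. The array design is annotated on rn4, so no probe coordinates are given. The 75th percentile of each array, over non-control probes, was subtracted on the log2 scale, with outlier spots set to missing. Probes were named through unversioned RefSeq accessions (27460 matched 1 gene). Probes well above background on at least 3 arrays were kept, and the probe with the highest mean stood for a gene. Differences were tested in R 4.3.3 by limma 3.58.1 (intensity trend, two-sided, Benjamini-Hochberg over 34417 items); all probes were also fitted as separate items. The fit was also run on simulated data with independent noise for each item. That simulation held no slide or rat effect, so it does not bear on those of these arrays. Members, lists and alternatives were chosen with earlier results of these data known. Genes were named by rule: all members, the 4 smallest p of each pathway list, the 3 highest levels of each marker list, and the 5 genes most like Nqo1; LOC and RGD names were left out there, and 1 gene each of the NADPH and other-segment lists is not reported here. Alternatives were other background corrections, normalizations, filters, probe rules, blocks and leaving out each array.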

Additional observations from a re-analysis of the deposited data

How the results depend on the processing

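The count of members past the threshold was 0 under every alternative run, and their smallest adjusted p was 0.459 (limma, Txnrd1 without phenolphthalein replicate 2). That setting also gave 1 member at an unadjusted p under 0.05. With every probe as an item, the first probe in array order was counted for a gene. Another Txnrd1 probe had an unadjusted p of 0.0273 there (limma). Over all items 0 to 2 were called when 1 array was left out, and 0 otherwise. Of 179 member differences under alternatives, 168 kept their direction. The other 11 changed sign, each when 1 array was left out. Of the 168, 49 came from leaving out 1 array and 119 from other alternatives. Many of the 119 are the same values again. The filters, the intensity trend, the outlier spots and the replicate block left the member differences as they were. The deposited value table holds the same signal, so the count overstates how firm the directions are. Without vehicle replicate 2, Gclc was at -0.0068, Srxn1 at 0.10 and Slc7a11 at 0.071. Without vehicle replicate 3, Nfe2l2 was at -0.034, Gclc at -0.068 and Osgin1 at -0.093. Without phenolphthalein replicate 1, Gclc was at -0.29, Gclm at -0.49 and Osgin1 at -0.29. Without phenolphthalein replicate 3, Nfe2l2 was at -0.019 and Slc7a11 at 0.071. Beyond the array left out, the cause was not tested. Over all arrays left out in turn, Nfe2l2 ranged from -0.034 to 0.13, Nqo1 from -0.51 to -0.035, Gclc from -0.29 to 0.23, Gclm from -0.49 to 1.03, Srxn1 from -0.37 to 0.10, Slc7a11 from -0.42 to 0.071 and Osgin1 from -0.29 to 0.61. Leaving out 1 array moved the median of the members between -0.18 and 0.088, that of the regulators between -0.049 and 0.031, of glutathione genes between -0.060 and 0.034, of NADPH enzymes between -0.092 and -0.0027 and of ATF4 genes between -0.15 and 0.029. With the replicate block, 0 members and 0 items were called; same-numbered rats did not deviate together (correlations of -0.0061, -0.015 and 0.025). Naming probes by a gene name column was not run, as the files used have none.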

Other observations

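ATF4, a factor of the amino acid and stress response that also acts on Slc7a11, was followed through 13 genes. Of these 4 had a higher and 9 a lower mean, with a median of -0.04, and 0 passed the threshold (limma, smallest adjusted p = 0.452). Only 1 gene, Ddit4, had an unadjusted p under 0.05, where 8.87% of all items had one. Ddit4, an inhibitor of mTOR signalling, stood at 2.71, 2.59 and 3.29 in vehicle and at 1.83, 2.24 and 1.38 in phenolphthalein, with separate groups and a log2 difference of -1.05 (SE 0.26). Atf5 differed by 0.17, Vldlr by -0.20 and Ddit3 by -0.25, and their groups were separate as well. Separate groups were found in 15.7% of all items. Krt19, an epithelial keratin of the tubular injury list, was highest in phenolphthalein replicate 1, at 0.37, and stood at -2.60 and -2.75 in the other treated arrays against -0.54 to -0.23 in vehicle. It was named after its values were seen.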
